A study of Mus musculus with 15 samples.

Results

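Lncenc1, H19, Malat1, Neat1, Gas5 and Snhg1 are 6 long noncoding RNA genes, taken here from 27179 gene identifiers measured in mouse 4T1 cells. They were chosen by name with their levels in these libraries already known: Lncenc1 and H19 for how far they differ between populations, the other 4 because they are abundant. Their symbols were matched to the Entrez identifiers of the count files, and all 6 were found. Their levels and fold changes are therefore a description without a test. The tests below concern other genes, each tested singly: lists of genes tied to the members, their neighbours on the chromosome, and the class of long noncoding RNAs. The lists were also chosen with earlier results of these data known. Their counts, set beside the share of all tested genes, are therefore a description, and no list was tested as a whole.

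4T1 is a mouse mammary carcinoma line, and RNA sequencing was done on 5 populations of it with 3 biological replicates each, 15 libraries in all. The parental population is labelled wild type. The other populations, called E1, E2, A and M, are clones that express the near-infrared fluorescent protein iRFP670. Each is 1 clone, grown from a single cell after transfection of the parental cells with the plasmid pNLS-iRFP670, so differences of a clone from the parental cells cannot be told apart from those of transfection, selection and single-cell isolation. Clones were maintained under G418, with none in the medium before RNA collection. Cells of every population were grown for 72 h to about 80% confluency. The epithelial identity of the cells was checked with 10 marker genes, all of them present. Their summed level was 384 to 434 CPM (counts scaled to TMM-adjusted library totals) in the parental libraries and 615 to 892 CPM in the clones. Not all of them were higher in the clones: Cdh1, E-cadherin, averaged 68.2 CPM in the parental cells and 22.4 CPM in A, and Krt19, Cldn7 and Esrp1 also averaged less in A than in the parental cells. None of 9 leukocyte or 6 endothelial markers averaged 1 CPM.

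Long noncoding RNAs are transcripts that act without being translated. Malat1 resides in nuclear speckles, the stores of splicing factors. Neat1 is the scaffold of paraspeckles, a neighbouring kind of nuclear body. Gas5 and Snhg1 are spliced host genes whose introns carry small nucleolar RNAs (snoRNAs). Their transcripts begin with the same terminal oligopyrimidine (5TOP) signal as mRNAs of the translation machinery, and nonsense-mediated decay degrades the spliced product. H19 is an imprinted RNA, made from the maternal allele beside Igf2, and is the precursor of miR-675. Lncenc1 is known from mouse embryonic stem cells, where it binds the proteins Ptbp1 and Hnrnpk and sustains glycolysis genes.

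On GRCm38, the build of the count files, Lncenc1 (identifier 100039691) spans chr13:97434970-97497664 on the plus strand, and H19 (14955) spans chr7:142575530-142578146 on the minus strand. Malat1 (72289) at chr19:5795690-5802672 and Neat1 (66961) at chr19:5824708-5845480 lie on the minus strand, 22.0 kb apart. Gas5 (14455) spans chr1:161034601-161038539 and Snhg1 (83673) spans chr19:8723487-8726326, both on the plus strand. All 6 are annotated as lncRNA, and their counts come from exons.

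RefSeq start regions (GRCm38.p6, 250 bases before to 50 bases after a transcript start) were given for 4 of the 6 genes: Gas5, Snhg1, Lncenc1 and Malat1. The 3 shown here were chosen to set the genes of the 5TOP class beside Lncenc1, whose level differed widely between populations. Capitals mark the first 50 transcribed bases, read 5′ to 3′. Gas5 had a pair of RefSeq starts, and the window of the downstream start was picked because it opens with a pyrimidine run, so its opening is no finding.
Gas5 (chr1:161034916-161035215, plus strand): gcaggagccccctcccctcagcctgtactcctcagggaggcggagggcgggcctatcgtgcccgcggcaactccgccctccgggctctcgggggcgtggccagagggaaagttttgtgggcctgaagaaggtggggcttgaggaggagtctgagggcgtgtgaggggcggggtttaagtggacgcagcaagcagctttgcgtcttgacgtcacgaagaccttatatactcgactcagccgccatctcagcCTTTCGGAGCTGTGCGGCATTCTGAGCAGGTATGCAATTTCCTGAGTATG
Snhg1 (chr19:8723237-8723536, plus strand): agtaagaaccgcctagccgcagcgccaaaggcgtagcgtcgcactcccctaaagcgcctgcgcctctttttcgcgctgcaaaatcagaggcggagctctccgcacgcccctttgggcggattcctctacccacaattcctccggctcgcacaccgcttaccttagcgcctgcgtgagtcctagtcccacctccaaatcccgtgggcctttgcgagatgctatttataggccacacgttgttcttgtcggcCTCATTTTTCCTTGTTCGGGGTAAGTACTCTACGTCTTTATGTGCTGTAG
Lncenc1 (chr13:97434720-97435019, plus strand): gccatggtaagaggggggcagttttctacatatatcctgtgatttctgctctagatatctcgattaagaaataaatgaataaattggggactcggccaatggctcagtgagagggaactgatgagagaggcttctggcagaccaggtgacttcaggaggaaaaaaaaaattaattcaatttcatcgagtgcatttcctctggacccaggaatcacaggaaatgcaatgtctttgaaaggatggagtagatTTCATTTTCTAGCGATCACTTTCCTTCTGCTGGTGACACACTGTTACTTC

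Gas5 opens with CTTTC and Snhg1 with CTC, while the annotated start of Lncenc1 is a T and Malat1 opens with a C followed by a purine. A C followed by at least 2 pyrimidines opened 5.81% of all 32851 RefSeq windows, and a C followed by at least 4 pyrimidines opened 2.51% of them. The first pattern opened 5 of 15 windows of 5TOP translation genes (33.3%) and 2 of 18 windows of snoRNA host long noncoding RNAs (11.1%). The Snhg1 window meets only the first pattern, which is as long as its own opening run. Neither the Gas5 nor the Snhg1 window is read against these shares. The letters TATA, which read the same on both strands, began 20 to 40 bases before the start in Gas5 and Snhg1 and in 5.81% of all windows. The dinucleotide CG occurred 19 times in the Gas5 window, 25 times in that of Snhg1, 10 times in that of Malat1 and 4 times in that of Lncenc1, against a median of 7 over all windows. These matches describe the annotated windows and say nothing of factors bound there.

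The levels were spread widely. Averaged over 15 libraries, Malat1 stood at 2220 CPM, 9th of all genes and 1st of 2077 annotated long noncoding RNA genes. Gas5 was 3rd of that class (146 CPM), Neat1 4th (142 CPM), Lncenc1 9th (38.0 CPM), Snhg1 13th (25.6 CPM) and H19 239th (0.558 CPM). Per kilobase of transcript the order was different. Malat1 came first with 318 CPM per kb, then Gas5 (57.0), Snhg1 (42.3), Lncenc1 (13.7), Neat1 (6.81) and H19 (0.244). These per-length levels use 1 RefSeq-linked transcript per gene. For Snhg1 that transcript has 605 bases, while its annotated exons together cover 2969 bases, so its place in the order depends on this choice. For Neat1 the long form of 20771 bases was used. A short form of 3004 bases shares the first part of that transcript, and gene counts do not separate the forms.

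**Figure D1:**
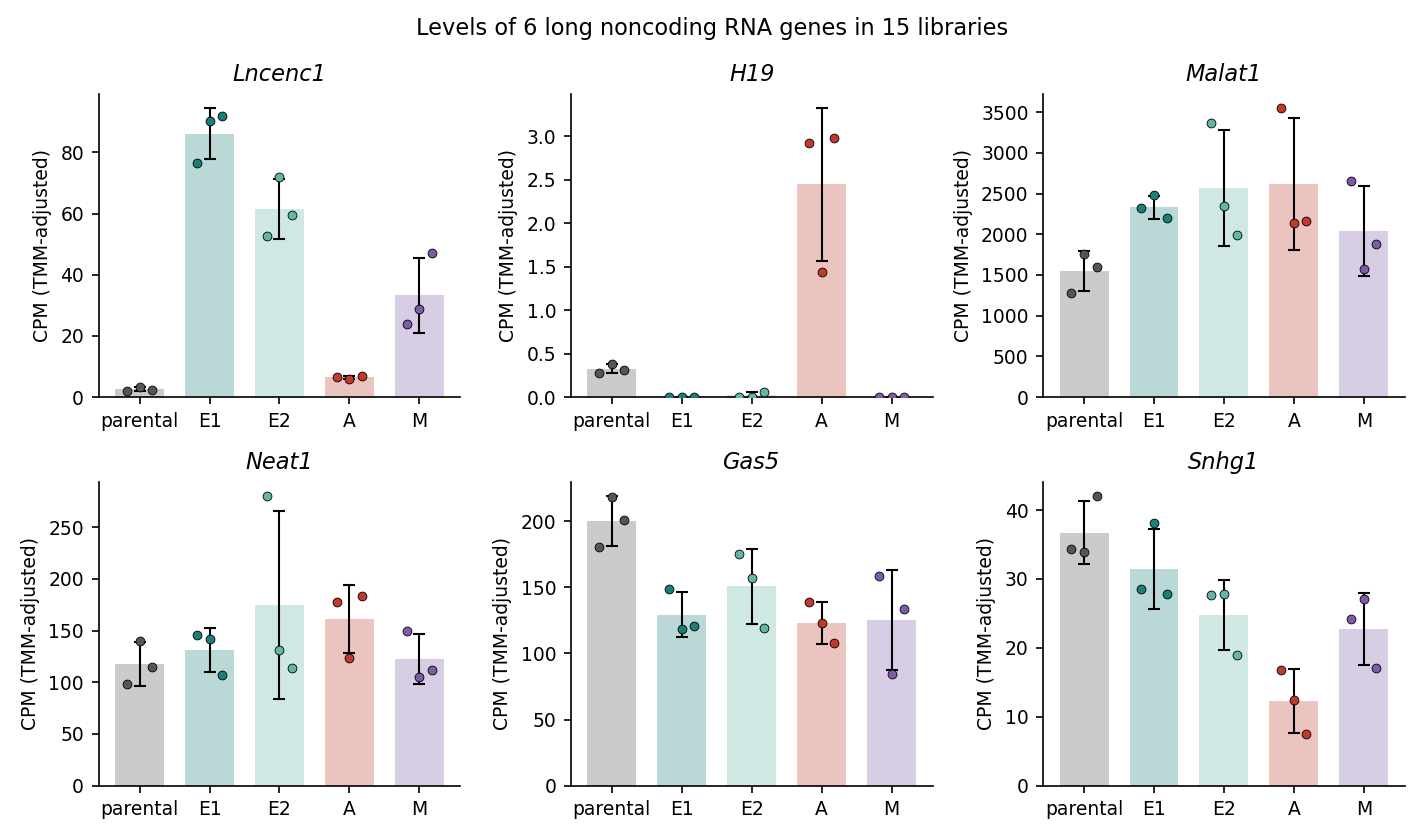
CPM (vertical axis, scaled to TMM-adjusted library totals) of the 6 genes in the parental population and the clones E1, E2, A and M. Points are libraries in the order of replicates 1 to 3, bars are means of 3 and error bars are SD. Lncenc1 was lowest in the parental libraries and H19 was found mainly in A. On this TMM-adjusted scale Gas5 was lower in every clone library than in any parental library.

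Lncenc1 was the member with the widest range among those detected in every library. It was low in the parental cells, at 1.95, 3.41 and 2.46 CPM in replicates 1 to 3. E1 held 76.5, 90.1 and 91.8 CPM and E2 held 52.7, 72.0 and 59.6 CPM. Every library of both clones lay far above every parental one.
M was intermediate, with 23.9, 28.8 and 47.0 CPM. A was close to the parental level, with 6.64, 5.97 and 6.92 CPM. The order of the means was E1 (86.1 ± 8.39, SD, n = 3), E2 (61.4 ± 9.78), M (33.2 ± 12.2), A (6.51 ± 0.489) and parental (2.60 ± 0.739), and no pair of neighbours in that order overlapped. The nearest libraries of E1 and E2 stood at 76.5 and 72.0 CPM, and those of A and the parental cells at 5.97 and 3.41 CPM. In bulk RNA, fewer cells that make a transcript and less of it per cell cannot be told apart.

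As log2 fold changes against the parental population, Lncenc1 stood at 5.00 (SE 0.242) in E1, 4.52 (SE 0.262) in E2, 3.63 (SE 0.369) in M and 1.29 (SE 0.236) in A. Ranked by fold change among the 12712 tested genes, it was 3rd from the top in E1 and in E2, 12th in M and 945th in A. The 4 differences share the 3 parental libraries. Across the 23 alternative settings the value ranged from 4.84 to 5.23 in E1 and from 1.11 to 1.52 in A.

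**Figure D2:**
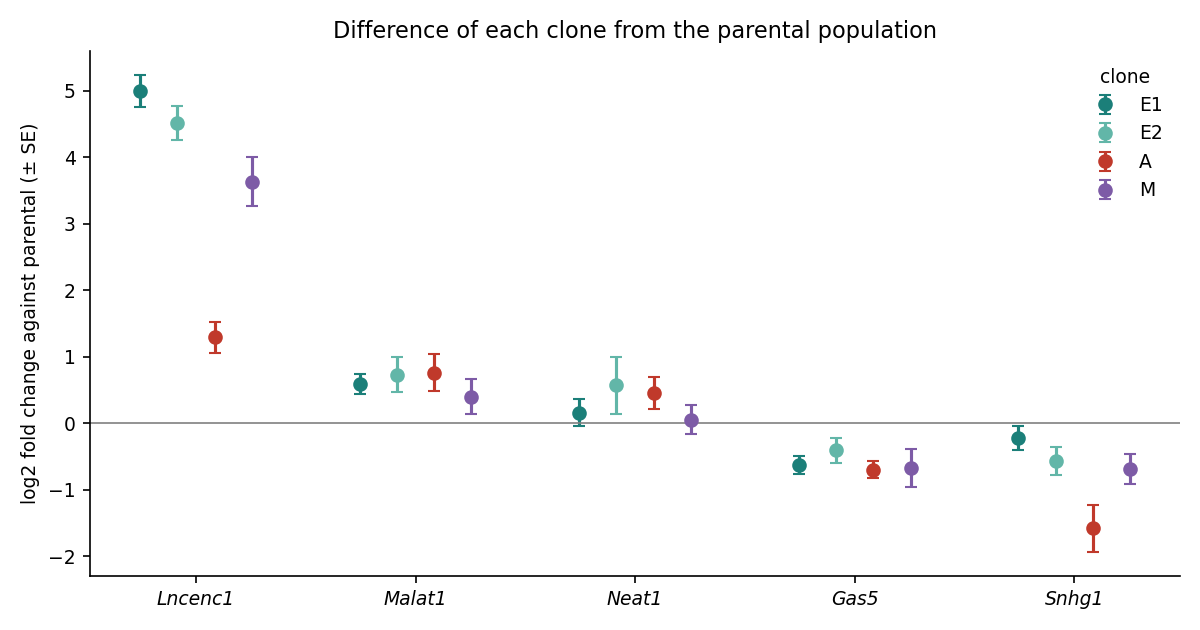
Log2 fold change of each clone against the parental population (vertical axis) for 5 of the 6 genes, with SE from the spread of log2 CPM over 3 libraries in each group. H19 is left out because E1 and M had 0 counts. Lncenc1 spans 1.29 to 5.00, while the values of Malat1, Neat1, Gas5 and Snhg1 lie between -1.58 and 0.76.

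The genes whose levels ran most like Lncenc1 over the 15 libraries, by Pearson correlation of log2 CPM among 7553 genes, were Igsf11 (r = 0.957), Cars (0.937), Fgfbp1 (0.936), Gna11 (0.934) and Stxbp5 (0.926). Igsf11, a cell adhesion protein of the immunoglobulin superfamily, averaged 0.347 CPM in the parental cells, 15.6 in E1, 10.7 in E2, 11.7 in M and 1.69 in A. Cars encodes cysteinyl-tRNA synthetase. It averaged 39.6 CPM in the parental cells and 76.3 and 78.0 CPM in E1 and E2. These coefficients describe 15 libraries of 5 populations and rest largely on the differences between populations.

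A list of genes tied to Lncenc1 in embryonic stem cells held genes of glycolysis, the pathway from glucose to lactate, together with Ptbp1 and Hnrnpk. Of its 20 tested genes, 9 differed among the 5 populations (edgeR quasi-likelihood F test, Benjamini-Hochberg adjusted p under 0.05). Among all tested genes 40.9% differed. In E1, 7 of the 20 were higher than in the parental cells (5 without E1 replicate 2), where 7.77% of all tested genes were higher. In E2, 5 were higher (3 without E2 replicate 2), where 9.14% of all tested genes were. In each of these clones 1 was lower, where 7.35% and 8.80% of all tested genes were. In M 1 was higher and 1 lower, where 14.1% of all tested genes differed. The list medians (log2) were 0.11 in E1, -0.04 in E2, 0.0005 in M and -0.15 in A. Those of all tested genes were -0.01, 0.01, -0.01 and 0.03.
Pfkl, the liver-type phosphofructokinase that commits glucose to glycolysis, rose from 25.2 ± 8.39 CPM to 70.4 ± 15.2 in E1 and 59.3 ± 10.8 in E2. Its log2 fold changes were 1.48 (SE 0.323, adjusted p = 0.000477) and 1.24 (SE 0.305, adjusted p = 0.00182). Tpi1, triosephosphate isomerase, rose by 1.22 (SE 0.194) in E1, 1.17 (SE 0.152) in E2 and 0.82 (SE 0.246) in M.
Ldha, which turns pyruvate into lactate, rose from 227 ± 13.5 CPM to 457 ± 103 in E1 and 396 ± 74.95 in E2. Pgk1, phosphoglycerate kinase, rose in E1 from 138 ± 14.5 to 280 ± 61.95 CPM. In A, 4 of the 20 were lower than parental, and 2 without A replicate 1, where 14.9% of all tested genes were lower.

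Of 29 pluripotency genes, the company Lncenc1 keeps in embryonic stem cells, 14 had 0 counts in all 15 libraries, among them Pou5f1, Sox2 and Nanog, the core transcription factors of that state. Of 9 tested genes 7 differed among the populations, where 40.9% of all tested genes did. In E1 4 of the 9 were lower, where 7.35% of all tested genes were. The list medians (log2) were -0.70 in E1, -1.26 in E2, -0.66 in M and 0.15 in A.
Tfcp2l1, a transcription factor of naive stem cells and of epithelia, rose from 3.81 ± 0.953 to 14.95 ± 6.88 CPM in E2, a log2 fold change of 1.95 (SE 0.414, adjusted p = 0.000259). Tet1, a 5-methylcytosine oxidase, fell in E1 from 3.24 ± 1.12 to 0.262 ± 0.0909 CPM (difference on the log2 scale -3.34, SE 0.392, adjusted p = 9.67e-05). Tet2, its relative, fell from 14.2 ± 3.53 CPM to 7.08 ± 1.28 in E1, 5.93 ± 1.51 in E2 and 5.25 ± 0.271 in M. Klf5, a Krüppel-like factor of stem cells and epithelia, fell by 1.28 (SE 0.229) in E2 and by 0.97 (SE 0.228) in A on the log2 scale.

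H19 was rare and came from only part of the libraries. The parental libraries held 6, 10 and 10 counts, or 0.278, 0.383 and 0.315 CPM. A held 88, 44 and 97 counts, or 2.92, 1.43 and 2.98 CPM. E2 held 2 counts, both in replicate 3.
The 3 libraries of E1 and the 3 of M had 0 counts. H19 thus was highest in A, lower in the parental cells and at or near 0 in E1, E2 and M, and the libraries of A, parental and E2 did not overlap. It passed the filter on low counts only through A. Against a floor of 3 counts over a population, A was at least 70.4-fold higher than E1 and at least 77.0-fold higher than M, and the parental cells were at least 9.36-fold higher than E1 and at least 10.2-fold higher than M. Against the 2 counts of E2, the ratio was 99.1 for A (95% exact interval 27.1 to 823) and 13.2 for the parental cells (3.31 to 115). Such floors and intervals cover counting error only, because reads that carry no molecular identifiers need not stem from separate molecules. The log2 fold change of A against the parental cells was 2.67 (SE 0.353).

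The mature miR-675 sequences are the products known from H19 and are shown with the seed (bases 2 to 8) in capitals, as RefSeq gives them on GRCm38.p6. The host gene's counts do not measure them, and the identifier of Mir675 had 0 counts in all 15 libraries.
miR-675-5p (chr7:142577112-142577133, minus strand): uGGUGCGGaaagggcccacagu
miR-675-3p (chr7:142577078-142577099, minus strand): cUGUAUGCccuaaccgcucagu

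The fibroblast markers were compared because H19 is also made by connective tissue. Their summed level was 21.2 to 33.8 CPM in the A libraries and 6.96 to 7.56 CPM in the parental ones. Almost all of it was Pdgfra, the receptor for platelet-derived growth factor A, at 26.4 CPM in A and 7.13 CPM in the parental cells. Dcn and Lum were at 0 in all libraries, and Col1a1, Col1a2 and Col3a1 averaged at most 0.124 CPM in any population.

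The genes most like H19 by the same measure were Ckap4 (r = 0.968), Cp (0.957), H2-K1 (0.936), B2m (0.936) and Ssbp3 (0.931). H19 had 0 counts in 8 of the 15 libraries, where its log2 CPM is set by the small count added before the log. These coefficients therefore rest largely on the differences of A and the parental cells from the other populations. Cp, ceruloplasmin, the copper-carrying ferroxidase, averaged 108 CPM in A, 17.4 in the parental cells and 4.74 to 8.32 in the other clones. H2-K1 and B2m encode the heavy and light chains of a class I antigen-presenting molecule. B2m averaged 115 CPM in A, 81.3 in the parental cells and 56.9 to 61.4 in the others. Reads of H2-K1 may be shared with other H2 genes.

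Igf2, the imprinted partner of H19 that lies 72.6 kb away, had 0 counts in all 15 libraries. Of 53 imprinted genes, 20 had 0 counts throughout, including Meg3, Dlk1, Peg3 and Cdkn1c. Of the 21 that were tested, 7 differed among populations (33.3%, where all tested genes gave 40.9%).
Gatm, the first enzyme of creatine synthesis, rose in all 4 clones, from 1.03 ± 0.198 CPM to 18.4 ± 0.555 in E1 and 14.3 ± 0.592 in E2, and to 11.5 ± 1.41 in M and 7.75 ± 1.05 in A. Its log2 fold changes were 4.07, 3.70, 3.39 and 2.82 in that order, and the largest of the adjusted p-values was 6.25e-10. Cd81, a tetraspanin of the cell surface, was higher in A, at 76.8 ± 8.54 against 30.6 ± 7.45 CPM (difference on the log2 scale 1.32, SE 0.214, adjusted p = 1.91e-06).
Mest, a hydrolase-like protein made from the paternal allele, rose by 1.52 (SE 0.432, adjusted p = 0.00234) in E2. Copg2, a coat protein of transport vesicles and the neighbour of Mest, rose by 0.68 (SE 0.104, adjusted p = 0.00236) in M.

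Factors known to act on the H19 locus or to bind its RNA gave 10 differing genes of 18 tested (55.6%, all tested genes 40.9%). In A 4 were lower than parental and 2 higher (1 without A replicate 2), where 14.9% and 15.1% of all tested genes were, with a list median of -0.15 against 0.03. In E1 4 were lower and 2 higher, where 7.35% and 7.77% of all tested genes were, and the 2 higher calls were lost without parental replicate 2. In M 5 were lower (3 without M replicate 3) and 2 higher (1 without A replicate 1). Of all tested genes 6.28% were lower in M and 14.1% differed in either direction. In E2 3 were lower and 1 higher, where 8.80% and 9.14% of all tested genes were. Igf2bp1, an RNA-binding protein of H19 and Igf2 transcripts, fell in A from 14.5 ± 5.59 to 4.69 ± 0.982 CPM (difference on the log2 scale -1.62, SE 0.351, adjusted p = 6.76e-05). Uhrf1, which guides maintenance DNA methylation, rose in E2 from 20.2 ± 4.19 to 51.9 ± 18.9 CPM (difference on the log2 scale 1.36, SE 0.338, adjusted p = 0.00074). Tet1 and Tet2, given above, are also on this list. The nearest tested neighbour of H19, Mrpl23 at 34.8 kb, averaged 0.485 to 1.17 CPM.

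Malat1 was the most abundant member, and its highest and lowest population means differed 1.69-fold. The parental libraries held 1276, 1763 and 1596 CPM and those of M held 2658, 1577 and 1883. E1 held 2327, 2477 and 2194 CPM. E2 held 3366, 2347 and 1987 CPM, and A held 3550, 2133 and 2158.
The 9 libraries of E1, E2 and A all lay above the highest parental library, while M overlapped it. Replicate 1 was the highest library of E2, A and M. The log2 fold change was 0.76 (SE 0.279) in A, 0.73 (SE 0.263) in E2, 0.59 (SE 0.147) in E1 and 0.40 (SE 0.261) in M. Parental replicate 1 and E2 replicate 1 had the largest share of counts in the single most abundant identifier, 49.3% and 49.1%. Without both, the value of E2 was 0.36. Without parental replicate 1 it was 0.61 in A, and without A replicate 1 it was 0.47.

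Neat1 overlapped between all populations. It stood at 98.4, 140 and 115 CPM in the parental cells, 146, 141 and 107 in E1, and 178, 124 and 183 in A. E2 held 280, 131 and 114 CPM, and M held 150, 105 and 112. E2 replicate 1 stood apart from the other 14 libraries, none of which exceeded 183 CPM.
Log2 fold changes ranged from 0.06 (SE 0.215) in M to 0.57 (SE 0.429) in E2, and the latter was 0.06 without E2 replicate 1 and -0.066 without parental replicate 1 as well. The order of the means was E2, A, E1, M and parental, with no pair of neighbours apart beyond their spread.

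Malat1 and Neat1 ran together from library to library. Over 15 libraries the Pearson correlation of log2 CPM was 0.78 and Spearman's rho was 0.77. The Pearson value was 0.76 without the 2 libraries farthest from the median of Malat1, and it was 0.78 for deviations from the population means. The libraries shared their preparation and scaling, so both genes also share any difference in library quality. Kcnq1ot1, an imprinted nuclear RNA unrelated in position, was also highest in E2 replicate 1 (114 CPM) and A replicate 1 (120 CPM), against 26.6 to 70.3 CPM in the other 13 libraries. The long noncoding RNA Firre was highest in the same libraries (32.5 and 39.0 CPM). Tug1 and Norad, also long noncoding RNAs, went the other way in E2 replicate 1. Both had their lowest level of the 15 libraries there (115 and 59.9 CPM). The part of library quality in these values was not tested.

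**Figure D3:**
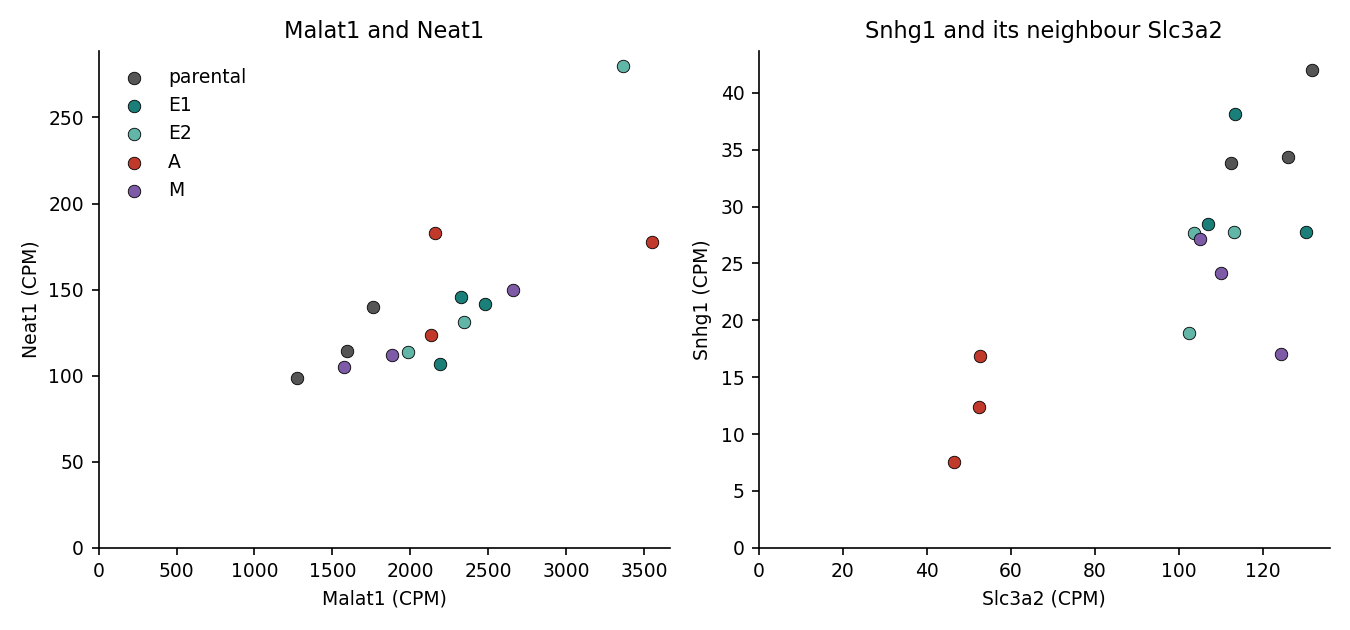
Left, Neat1 against Malat1, and right, Snhg1 against Slc3a2, its neighbour 118 bases away. Each point is 1 of 15 libraries, in CPM on linear axes, coloured by population. E2 replicate 1 stands at the top for Neat1 (280 CPM), and the 3 libraries of A lie apart at 46.4 to 52.7 CPM of Slc3a2.

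Proteins of the nuclear speckle, where Malat1 resides, were lower in A. Of 21 tested genes 12 were lower there than in the parental cells, where 14.9% of all tested genes were lower, and the list median was -0.70 (log2) against 0.03. Among the 5 populations 13 of the 21 differed (61.9%, all tested genes 40.9%).
Prpf8, the core protein of the spliceosome, fell from 357 ± 92.0 CPM to 157 ± 19.1 in A, 209 ± 42.6 in E2 and 199 ± 22.7 in M (log2 fold change in A -1.18, SE 0.234, adjusted p = 1.27e-05). U2af1, which reads the 3′ splice site, fell in A from 20.4 ± 1.53 to 9.46 ± 0.6996 CPM. Srsf3, a serine and arginine-rich splicing factor, fell by 0.88 (SE 0.197) in A and by 0.56 (SE 0.045) in E1 on the log2 scale. Acin1, a splicing-dependent junction protein, fell by 0.90 (SE 0.115) in E2 and 0.89 (SE 0.117) in A.

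Proteins of the paraspeckle built on Neat1 gave a mixed pattern. Of 18 tested genes 9 differed among the populations (50%, all tested genes 40.9%), and 4 were higher than parental in E1 and 3 in E2, where 7.77% and 9.14% of all tested genes were higher. In A 4 were higher (1 without parental replicate 1) and 2 lower, where 15.1% and 14.9% of all tested genes were.
Rbmx, an RNA-binding protein encoded on the X chromosome, rose from 6.79 ± 1.36 CPM to 19.1 ± 6.07 in E1, 21.6 ± 1.90 in E2 and 17.0 ± 3.97 in M. Its log2 fold change in E2 was 1.65 (SE 0.190, adjusted p = 2.4e-05). Cpsf6 and Nudt21 are partners in 1 cleavage factor of mRNA 3′ ends and were called in opposite directions. Cpsf6 rose from 89.3 ± 25.9 to 182 ± 47.8 CPM in E2 and 165 ± 32.5 in E1, while Nudt21 fell from 30.6 ± 3.28 to 14.6 ± 3.43 CPM in A and 15.8 ± 3.97 in M. Taf15, an RNA-binding protein of the FET family, fell in A from 41.8 ± 6.61 to 18.1 ± 2.60 CPM.

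On chromosome 19, Frmd8, a membrane adaptor 5.49 kb from Neat1, rose in A from 11.1 ± 0.623 to 18.3 ± 1.11 CPM (difference on the log2 scale 0.72, SE 0.0693, adjusted p = 0.00724).

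Gas5 was lower in the clones. The parental libraries held 180, 218 and 201 CPM. E1 held 149, 119 and 121 CPM and E2 held 175, 157 and 119. A held 139, 123 and 108 CPM, and M held 159, 84.4 and 133.
All 12 clone libraries lay below the lowest parental library, and the 4 clones overlapped each other. E2 replicate 1 came closest to the parental range. The separation of E2 and M depended on the TMM factors. Scaled to unadjusted totals, parental replicate 1 held 153 CPM, below E2 replicates 1 and 2 (164 and 163 CPM) and M replicate 1 (154 CPM). On the log2 scale the fold change was -0.63 in E1, with an SE of 0.132. It was -0.41 in E2 (SE 0.183), -0.70 in A (SE 0.133) and -0.67 in M (SE 0.283). Across the 23 alternative settings these values stayed between -0.87 and -0.29.

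Snhg1 was lowest in A. The parental libraries held 34.3, 33.9 and 42.0 CPM, E1 held 28.5, 38.1 and 27.7, and E2 held 27.6, 27.7 and 18.9. M held 24.2, 27.1 and 17.0 CPM, and A held 16.8, 12.4 and 7.50.
E1 overlapped the parental cells, while E2, M and A did not. The highest library of A (16.8 CPM) was just under the lowest of M (17.0 CPM). Scaled to unadjusted totals, M overlapped both the parental cells and A. Replicate 2 of M then held 30.1 CPM against 29.1 in parental replicate 1. Replicate 3 of M held 15.7 CPM against 17.7 in A replicate 1. The log2 fold change was -1.58 (SE 0.352) in A, -0.69 (SE 0.225) in M, -0.57 (SE 0.209) in E2 and -0.23 (SE 0.178) in E1. Between Gas5 and Snhg1 the Pearson correlation over 15 libraries was 0.49 and Spearman's rho 0.50, and the Pearson value was 0.18 for deviations from the population means.

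With the threshold applied to other genes, 3 of the 6 members differed from the parental cells in E1, where 15.1% of all tested genes did. The number was 3 in E2 (17.9% of all), 5 in A (30.0%) and 4 in M (14.1%), and nothing is read from these counts because the levels chose the members. In TMM-adjusted CPM, the 3 libraries of a clone and the 3 parental ones did not overlap for 5 members in A, 5 in E2, 4 in E1 and 4 in M. The shares of all tested genes were 44.6%, 32.6%, 33.4% and 29.3%.

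The snoRNA hosts other than Gas5 and Snhg1 were counted as a list. Of 17 tested, 8 differed among the populations (47.1%, all tested genes 40.9%). In A 7 were lower than in the parental cells and in E1 3 were lower, where 14.9% and 7.35% of all tested genes were. The numbers were 4 in E2 (2 without E2 replicate 3) and 5 in M (2 without M replicate 2), where 8.80% and 6.28% of all tested genes were lower, and the single host that was higher, Dancr in E2, was not called without E2 replicate 1. The list medians were -0.66 in M, -0.56 in A, -0.45 in E1 and -0.17 in E2.
Zfas1, the host of a snoRNA cluster at the Znfx1 locus, fell from 52.5 ± 2.63 CPM to 17.7 ± 3.82 in A, 18.8 ± 5.51 in E2, 21.5 ± 0.859 in E1 and 28.6 ± 9.84 in M. Its log2 fold changes were -1.57, -1.48, -1.29 and -0.88 in that order, with adjusted p-values of 3.91e-06, 2.97e-05, 0.000171 and 0.00567. Snhg12 fell from 18.5 ± 2.80 CPM to between 6.72 ± 2.56 in A and 8.92 ± 2.09 in M. Snhg16 fell in A from 10.8 ± 2.42 to 2.90 ± 1.06 CPM, and Snhg6 fell in A from 5.24 ± 0.991 to 1.91 ± 0.657 CPM.

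**Figure D4:**
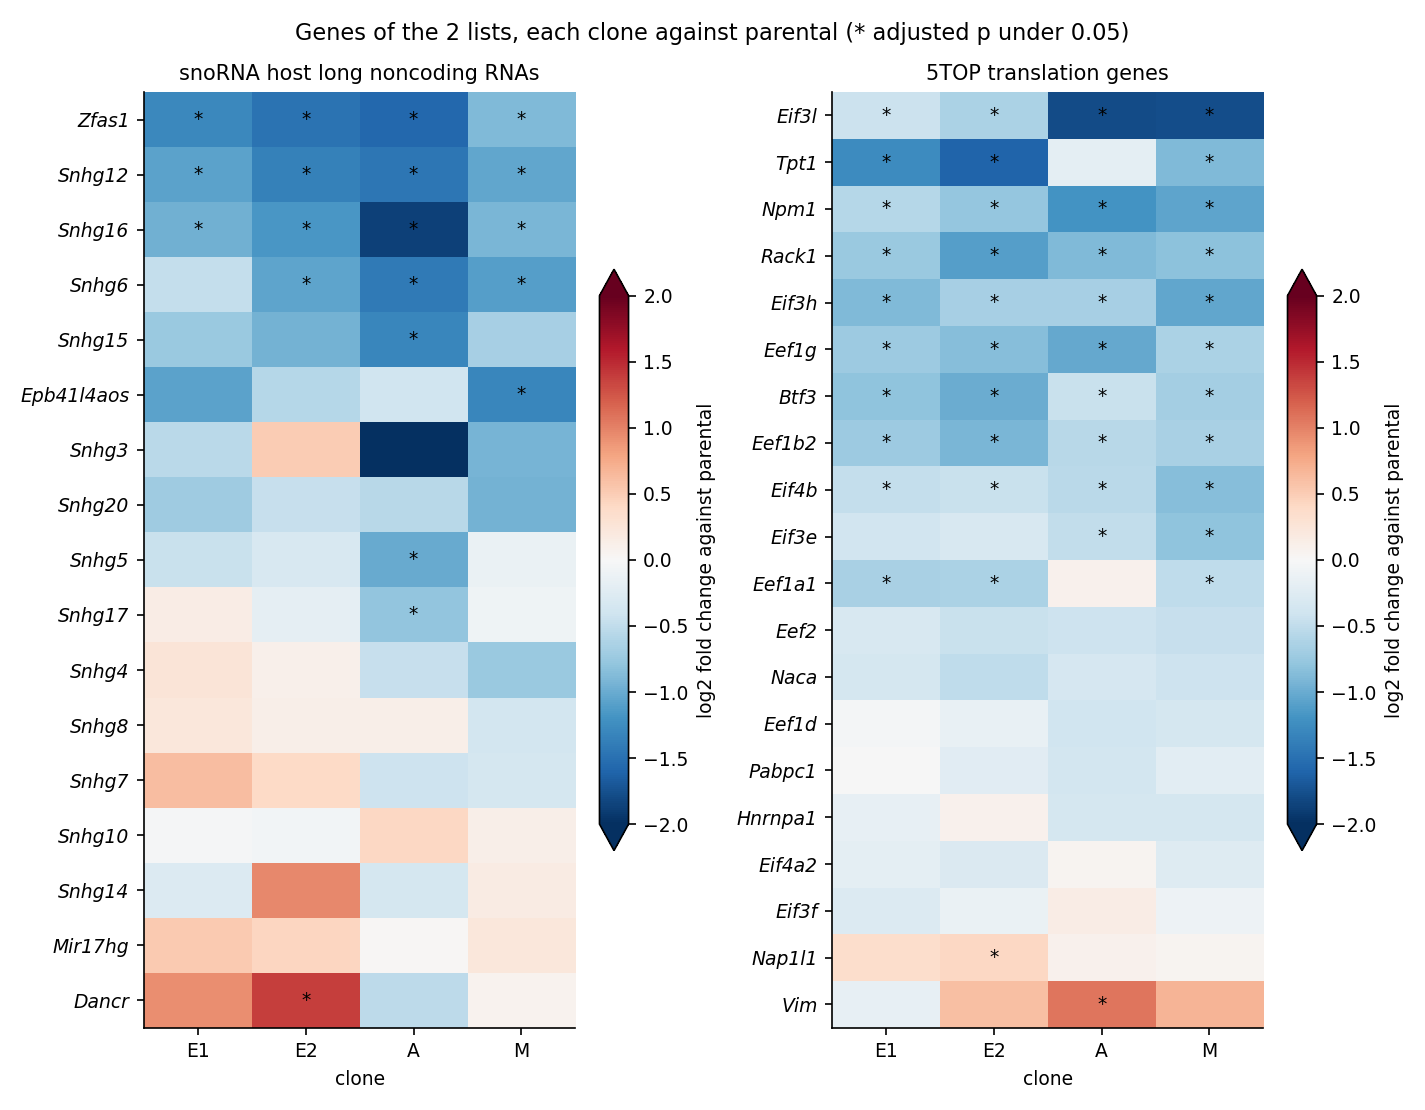
Log2 fold change of each clone (columns) against the parental population for the 17 tested snoRNA hosts other than Gas5 and Snhg1 (left) and the 20 tested 5TOP translation genes (right). Blue is lower and red higher, the scale ends at -2 and 2, rows are sorted by their mean, and asterisks mark an adjusted p under 0.05. Zfas1 and Snhg12 are lower in all 4 clones, and Tpt1 is pale in A.

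Many protein genes with the 5TOP start were lower in the clones. Of 20 tested, 13 differed among the populations (65.0%, all genes 40.9%). In E1 10 were lower, in E2 10 and in M 11, where 7.35%, 8.80% and 6.28% of all tested genes were lower. In A 9 were lower, and 5 without A replicate 1, where 14.9% of all tested genes were lower. List medians were -0.57 in M, -0.48 in E2 and -0.41 in both E1 and A. The 4 comparisons share the parental libraries.
Npm1, nucleophosmin of the nucleolus, fell from 689 ± 35.0 CPM to 404 ± 51.5 in E2, 301 ± 39.1 in A and 332 ± 40.7 in M. Rack1, a scaffold on the small ribosomal subunit, fell from 148 ± 18.5 CPM to between 69.0 ± 6.11 in E2 and 88.8 ± 16.4 in E1, and all 4 clones were called. Eif3l, a subunit of initiation factor eIF3, fell from 96.6 ± 4.15 CPM to 27.9 ± 4.22 in A and 28.3 ± 1.98 in M (log2 fold changes -1.79, SE 0.137, and -1.77, SE 0.0693).
Tpt1, a small translationally controlled protein, fell by 1.26 in E1, 1.59 in E2 and 0.89 in M on the log2 scale. In A it averaged 90.7 ± 15.1 CPM, against 104 ± 7.10 CPM in the parental cells. The difference of A from E2 was itself called, at 1.40 (SE 0.140, adjusted p = 6.86e-08).

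Factors of nonsense-mediated decay, the pathway known to remove spliced Gas5 and Snhg1, were lower in A. Of 18 tested, 11 were lower there, where 14.9% of all tested genes were lower, with a list median of -0.55 against 0.03.
Smg5, which recruits decay enzymes, fell in A from 79.8 ± 6.51 to 42.0 ± 4.74 CPM (difference on the log2 scale -0.92, SE 0.115, adjusted p = 2.85e-05). Smg9, part of the Smg1 kinase complex, fell in A from 4.36 ± 0.740 to 1.71 ± 0.210 CPM. Smg8, its partner in that complex, fell in A from 14.9 ± 2.82 to 8.30 ± 1.24 CPM, and in E2 and M as well. Eif4a3, the helicase that anchors the exon junction complex, fell in A from 23.0 ± 7.91 to 11.7 ± 1.46 CPM.

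Of the 18 snoRNAs known in the introns of Gas5 and Snhg1, 2 had an identifier in the count files, and both differed among the populations. Snord47 of Gas5 averaged 20.9 ± 5.53 CPM in the parental cells, 28.8 ± 3.03 in A, 25.4 ± 5.98 in E2, 16.4 ± 2.34 in E1 and 14.9 ± 5.85 in M. It was higher in A than in E1 (log2 fold change 0.81, SE 0.145, adjusted p = 0.0142). Snord22 of Snhg1 averaged 11.2 ± 1.58 CPM in the parental cells and 6.28 ± 1.81 in M. That difference was called at -0.83 (SE 0.285, adjusted p = 0.0221) but not without parental replicate 2 or without M replicate 3. Some annotated exons of the host genes cover these snoRNAs, so their reads may be shared or discarded.

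The direct neighbour of Snhg1 differed in A, the clone where Snhg1 was lowest. Slc3a2, the heavy chain of amino acid transporters, starts 118 bases away on the other strand. It held 52.7, 52.5 and 46.4 CPM in A, against 126, 112 and 132 in the parental cells, and 103 to 130 in the libraries of E1, E2 and M. The log2 fold change of A was -1.29 (SE 0.0908, adjusted p = 6.57e-08) against the parental cells, -1.21 (SE 0.103, adjusted p = 1.59e-07) against E1 and -1.07 (SE 0.0749, adjusted p = 1.73e-06) against E2. M stood above A by 1.16 (SE 0.0944, adjusted p = 1.26e-06). Snhg1 also averaged less in M than in the parental cells, but Slc3a2 was not called there (log2 fold change -0.12, SE 0.0995). Between Snhg1 and Slc3a2 the Pearson correlation of log2 CPM over 15 libraries was 0.83. It was 0.55 without the 2 libraries farthest from the median of Snhg1, and 0.15 for deviations from the population means. Of all tested genes, 29.6% differed between A and E1, 22.4% between A and E2 and 17.7% between M and A.
Wdr74, a ribosome assembly factor 9.47 kb to the other side, fell in A from 11.5 ± 0.616 to 6.64 ± 0.259 CPM (difference on the log2 scale -0.79, SE 0.0552, adjusted p = 0.00551). Around Gas5, Zbtb37 overlaps it on the opposite strand and averaged 9.46 to 10.6 CPM (any difference, adjusted p = 0.949). Because the strand setting of the counting is not given in the sources used here, reads of such overlapping genes cannot be told apart.

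Within 250 kb of the 6 genes, 29 of 72 tested genes differed among the populations, 40.3% against 40.9% of all tested genes. Enc1, the actin-binding protein gene 182 kb from Lncenc1, averaged 29.0 ± 9.54 CPM in the parental cells, 27.9 ± 2.71 in E1, 32.9 ± 4.11 in E2 and 45.7 ± 13.1 in M. Its call in M (0.66, SE 0.372, adjusted p = 0.0323) was lost without parental replicate 1, without parental replicate 2 and without M replicate 2.

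Among other annotated long noncoding RNA genes, 75 of 433 tested differed among the populations, or 17.3%. Their median level was 0.658 CPM, so that most had far fewer counts than 5 of the 6 members. From a list of 38 known long noncoding RNAs found in the files, 21 were tested and 9 differed (42.9%, all tested genes 40.9%).
Mirt1 rose from 3.26 ± 0.990 CPM to 14.1 ± 3.01 in E1, 11.6 ± 6.34 in E2 and 11.2 ± 4.01 in M. Pvt1, the neighbour of Myc, fell from 32.7 ± 3.33 CPM to 10.9 ± 1.02 in A and 8.49 ± 2.53 in M. Terc, the RNA template of telomerase, fell from 41.4 ± 14.6 CPM to 18.2 ± 0.945 in A and 13.3 ± 5.29 in M. Morrbid, a regulator of myeloid cell survival, rose in A from 4.32 ± 1.47 to 9.88 ± 2.12 CPM.

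Library totals ranged from 20143111 to 36831801 counts, of which 6164768 to 14206491 lay outside the 6 most abundant identifiers. Those 6 took 61.4% to 72.1% of a library and are part of the total to which CPM are scaled. The members gathered 257 (H19) to 946815 (Malat1) counts over the 15 libraries, so that counting error matters for H19 and the spread between replicates for the other 5.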

How the data were processed

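Poly(A) or total RNA selection is not given in the sources used here; the labels name total RNA and a directional library kit. The deposited values are raw counts per gene, 1 file a library, which the authors made with HISAT2 and featureCounts on GRCm38 (mm10), per the submitters' processing notes; versions and the strand setting are not given there. The authors' normalized and log-scale tables and their DESeq2 table were not used.

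The members and lists were chosen with earlier results of these data known. Identifiers were named with a RefSeq gene table and GENCODE links. In R 4.3.3 with edgeR 4.0.16 and limma 3.58.1, filterByExpr (minimum count 10, minimum total 15) kept 12712 genes, TMM factors were 0.847 to 1.11, and a robust quasi-likelihood model with 1 term, the population, was fitted and tested with F tests. A call is a Benjamini-Hochberg adjusted p under 0.05 over all tested genes of a comparison. The prior count was 2. SE came from the SD of log2 CPM. The scripts were tested on simulated data. P-values set a difference against the spread between biological replicates, which was estimated in 1 fit over all 15 libraries. Each clone is a single clone, so they do not cover the spread between clones.

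Named genes were the members, their nearest tested neighbours on each side, up to 4 called genes per list with the largest fold change, at least 5 CPM in the highest population and no overlap with the parental libraries, and the 5 genes most like Lncenc1 and H19. A result for 1 gene under this rule was left out of the text. A rise or fall of a named list gene is given for clones whose call held in each of 23 alternatives in which the gene was tested, unless stated: 15 libraries left out in turn and 8 other settings (RLE factors, no filter, minimum count 50, DESeq2 1.42.0, without the 6 most abundant identifiers, the top share as covariate, without 2 libraries, replicate block). Genes counted but not named were not held to that rule. Replicate numbers were not used to pair the libraries in the main model. Over 30 same-number pairs the correlation of deviations from the population means was -0.0579 to 0.213, and 4 exceeded 0.1. The median was 0.0539, against -0.0287 for pairs of other numbers, and 13 of 15 libraries correlated best with their own number. Whether libraries of the same number share a batch was not tested.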

Additional observations from a re-analysis of the deposited data

How the results depend on the processing

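Leaving out 1 of the 15 libraries in turn and 8 other settings gave 1100 values, of which 1060 stayed within their limit, 40 moved and 0 reversed. With no filter 128 genes were called between E2 and E1, 817 between M and E1, 790 between M and E2, 11 of the imprinted list and 14 of the known long noncoding RNAs. With the top share as a covariate the numbers were 65, 781 and 760, and 11 for the imprinted list. Without parental replicate 1 and E2 replicate 1 they were 1440 (E2 against parental) and 64 (E2 against E1), and the log2 fold change was -2.65 for H19 in E1 and in M, 0.36 for Malat1 in E2 and -0.066 for Neat1 in E2. DESeq2 called 128 genes between E2 and E1 and 743 between M and E2, and gave H19 -5.66 in E1, -3.78 in E2 and -5.77 in M. The main values, -2.52 in E1, -2.11 in E2 and -2.52 in M, depend on the prior count of 2, which DESeq2 does not use. Neither gives a firm size, as these clones are at or near 0 counts. Leaving out 1 library moved the calls to 1084 to 2083 (E1 against parental), 1145 to 1975 (M against parental), 9 to 46 (E2 against E1), 210 to 824 (M against E1), 208 to 723 (M against E2), 1479 to 2411 (M against A), the intronic snoRNAs to 1 to 2 and H19 in E2 to -2.51 to -1.93. A minimum count of 50 removed H19. The replicate block is an alternative to the main model, and 13 of 15 libraries correlated best with their own number. It gave 68 calls between E2 and E1 (30 in the main model) and 699 between M and E2 (445 in the main model). Depth limits H19, where a population at 0 counts allows up to 0.0348 CPM in E1 and 0.0318 CPM in M. The cause of these shifts was not tested.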
